A study of Mus musculus with 2 samples.

Results

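The insulin-like growth factor (IGF) receptors, their docking substrates and the secreted IGF-binding proteins were described in mouse cells labelled as lymphoma. The genes were taken by symbol, as every probe set annotated with exactly 1 of 10 symbols, out of 18194 genes on the array: the 3 receptors Igf1r, Igf2r and Insr, the 2 insulin receptor substrates Irs1 and Irs2, and the 5 binding proteins Igfbp2, Igfbp3, Igfbp4, Igfbp5 and Igfbp7. Together they had 26 probe sets, the groups of short probes with which such arrays read a transcript, mostly near its 3′ end. One array carried RNA of lymphoma cells grown together with endothelial cells, which line blood vessels, and 1 array carried RNA of lymphoma cells grown in medium containing serum. The labels give no lymphoma line, no strain, age or genotype, no origin of the endothelial cells, no culture time, no medium for the co-culture, and no separation of the cell types before RNA was taken. The question set by the design is what differs in these cells after co-culture. Serum itself carries IGFs and insulin, and since the medium of the co-culture is not given, endothelial cells and a change of medium cannot be told apart. With 1 array per group there was no replicate and no test, so no value below can be set against the spread between cultures.

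IGF1R and the insulin receptor are tyrosine kinases at the cell surface. When IGF1, IGF2 or insulin binds, they phosphorylate the substrates IRS1 and IRS2, which recruit phosphoinositide 3-kinase and so activate AKT, the TOR kinase and, in part through SHC and GRB2, the RAS and MAP kinase branch. AKT keeps the FOXO transcription factors out of the nucleus. IGF2R, also the cation-independent mannose 6-phosphate receptor, carries IGF2 and lysosomal enzymes to lysosomes and has no kinase. The binding proteins hold IGFs outside the cell, where they can block or prolong IGF action and are cut by proteases. IGFBP7 binds IGFs only weakly, and vessel endothelium is one of its known sources.

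Intensities are the linear values of the deposited table. A floor was set at 44.3, the median of all values of both arrays, and a probe set counted as measured when it exceeded the floor on at least 1 array. Differences are log2 differences, co-culture minus serum, taken after lower values had been raised to the floor, and 2-fold (a log2 difference of 1) was the limit for calling a gene higher or lower. A gene took the value of its brightest probe set. Where 1 array lay below the floor, the fold is a lower bound. Probe sets of the same gene gave the only available measure of error. Their log2 differences had a pooled SD within genes of 0.60 over 5480 genes. It covers disagreement between probe sets on the same arrays. Error that shifts a whole array and the spread between cultures do not enter it. Probe sets of 1 gene read the same RNA and are not replicates.

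Of the 10 genes, 8 were measured, by 17 of the 26 probe sets. By the brightest probe set 4 were at least 2-fold lower in co-culture (Igfbp5, Irs1, Igfbp4 and Insr), 0 were at least 2-fold higher and 4 lay within 2-fold or had a bound under it. Among all 11560 measured genes, 9.97% passed the limit on the lower side and 4.52% on the higher side. The median log2 difference was -0.97 over the 8 genes, with Irs2 at its bound, against -0.06 over all measured genes. The difference was below 0 for 6 of the 8 genes and for 54.1% of all measured genes. Counted by probe set, 6 of 17 passed the limit as lower and 1 as higher, against 8.05% lower and 8.17% higher among all measured probe sets. These counts describe 2 arrays and genes chosen with earlier results known. The count of lower genes depended on how probe sets were used: it was 2 (Irs1 and Igfbp4) when each gene took the mean of its measured probe sets, an alternative chosen after seeing the data, and 1 when probe sets below the floor on both arrays entered that mean as 0. It was also 1, of 7 measured genes, when the floor was raised to percentile 75 of all values. Of all measured genes, 7.95%, 5.65% and 5.50% were lower past the limit in these settings, in that order.

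**Figure D1:**
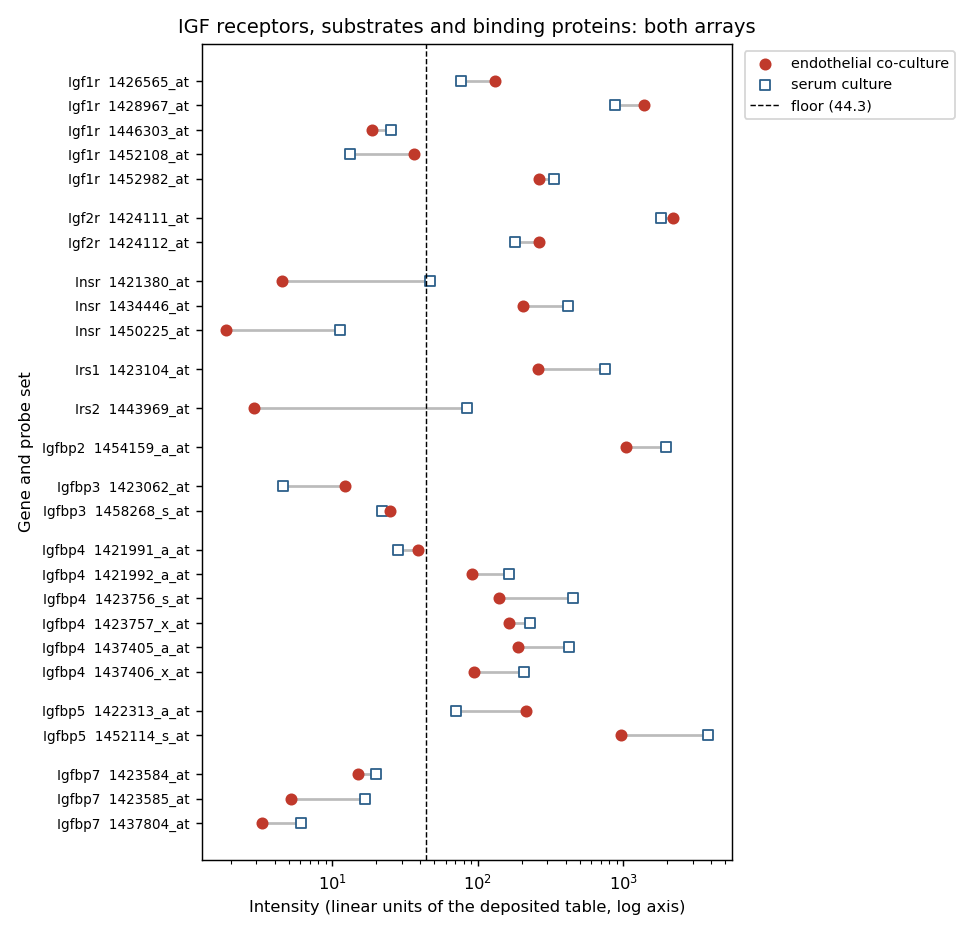
Intensity of each of the 26 probe sets on the endothelial co-culture array (filled circles) and the serum culture array (open squares), on a log axis, with the floor of 44.3 as a dashed line. Igfbp5 has 1 probe set far lower and 1 higher in co-culture, all 3 Igfbp7 and both Igfbp3 probe sets lie left of the floor on both arrays, and Irs2 crosses the floor.

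The arrays also differed in ways that could touch these values. The ratio of 3′ to 5′ intensity of beta-actin, which rises as RNA or cRNA gets shorter, was 2.05 on the co-culture array and 3.56 on the serum array, and the ratio for Tfrc, the transferrin receptor, was 5.03 in co-culture and 13.2 in serum. The ratio for Gapdh was 1.88 in co-culture and 2.54 in serum. The part of these gaps in the results was not tested. Most markers that define endothelial cells were below the floor on both arrays: 4 of 16 were measured, 13 of 16 were below the floor on each array, and their summed intensity was 1024 in co-culture and 922 in serum. The largest part of both sums was Egfl7, with 532 in co-culture and 473 in serum. The other measured ones were Ramp2 (90.9 in co-culture and 99.3 in serum), Flt1 (26.4 and 93.3) and Eng (58.5 and 36.5). Pecam1 and Cdh5, adhesion molecules of endothelium, were below the floor, with 18.4 and 44.1 in co-culture and 21.3 and 19.6 in serum. Of 10 stromal markers 5 were measured, with summed intensities of 463 in co-culture and 388 in serum. Markers of B cells and other leukocytes went against the lymphoma label, with 13 of 14 below the floor in co-culture and 12 of 14 in serum. Their summed intensity was 275 in co-culture and 430 in serum. In such bulk RNA, fewer cells that express a gene and less RNA per cell cannot be told apart.

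Of the receptors, only Insr reached the 2-fold limit. Igf1r, the receptor for IGF1 and IGF2, had intensities of 1385 in co-culture and 876 in serum by its brightest probe set (1428967_at), a log2 difference of 0.66. By 1426565_at it had 130 in co-culture and 76.3 in serum (0.77), and by 1452982_at it had 264 in co-culture and 334 in serum (-0.34). The 3 measured probe sets thus had no common direction, and their SD of 0.61 was about the pooled SD of 0.60. The remaining Igf1r probe sets lay below the floor on both arrays, 1446303_at with 18.6 in co-culture and 25.1 in serum and 1452108_at with 36.5 in co-culture and 13.3 in serum. Of all measured genes, 10.6% had a log2 difference at least as high as that of the brightest Igf1r probe set.

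Igf2r, the lysosomal trafficking receptor, was a little higher by both of its probe sets and changed least by its brightest one. Its intensities were 2198 in co-culture and 1807 in serum by 1424111_at, and 263 in co-culture and 179 in serum by 1424112_at. The log2 differences of 0.28 and 0.55 were smaller than the pooled SD, and 26.2% of all measured genes had a difference at least as high as the first. A further probe set, annotated to both Igf2r and the antisense gene Airn, was left out because it cannot be given to 1 gene. It was below the floor on both arrays.

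Insr, the insulin receptor, had 204 in co-culture and 414 in serum by 1434446_at, a 2.03-fold lower intensity and a log2 difference of -1.02. A second probe set, 1421380_at, had 4.53 in co-culture and 47.1 in serum, which gives a bound of at least 1.06-fold lower. The third, 1450225_at, had 1.85 in co-culture and 11.3 in serum, both below the floor. All 3 probe sets had the lower value in co-culture, but only the first lay above the floor on both arrays, and it passed the limit narrowly. Of all measured genes, 9.56% were as low or lower.

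Both insulin receptor substrates were lower in co-culture, each by its only probe set. Irs1, the docking protein that links the receptors to phosphoinositide 3-kinase, had 261 in co-culture and 743 in serum, 2.85-fold lower (log2 difference -1.51), and 3.75% of all measured genes were as low or lower. Its value is over the pooled SD, and no second probe set checks it. Irs2, the paralogous docking protein, had 2.88 in co-culture and 83.9 in serum. It was therefore measured in serum alone, at least 1.89-fold lower in co-culture, and did not reach the 2-fold limit at this floor. With the lower floor at percentile 25 its log2 difference was -2.71, and with a pseudocount of 16 in place of a floor it was -2.40.

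**Figure D2:**
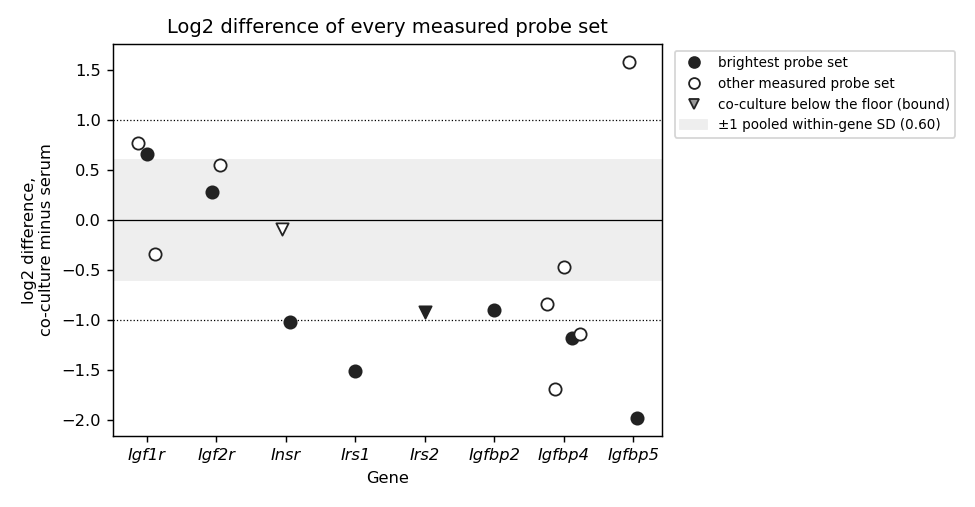
Log2 difference, co-culture minus serum, of the 17 measured probe sets by gene; filled symbols are the brightest probe set, triangles are bounds, dotted lines mark 2-fold and the grey band is 1 pooled within-gene SD (0.60) on each side of 0. All 5 Igfbp4 probe sets lie below 0, whereas those of Igfbp5 lie at -1.98 and 1.58.

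By the brightest probe set, and with Irs2 at its bound, the binding proteins had the lowest difference. They also had the widest disagreement between probe sets. Of 14 probe sets of the 5 genes 8 were measured, 7 of them lower in co-culture and 1 higher. All 8 carry an identifier that marks probes shared between transcripts or genes (_a_at for transcripts of 1 gene, _s_at and _x_at for possible sharing with others). Igfbp2, Igfbp4 and Igfbp5 therefore had no value once such probe sets were left out.

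Igfbp4, which mostly inhibits IGF action, was lower by each of its 5 measured probe sets. The brightest, 1437405_a_at, had 188 in co-culture and 425 in serum, 2.27-fold lower (log2 difference -1.18). The probe set 1423756_s_at had 140 in co-culture and 453 in serum (-1.69), and 1437406_x_at had 94.3 in co-culture and 208 in serum (-1.14). These 3 passed the 2-fold limit. The others were nearer 0, with 91.1 in co-culture and 163 in serum by 1421992_a_at (-0.84) and 165 in co-culture and 229 in serum by 1423757_x_at (-0.47). The mean of the 5 log2 differences was -1.06 with an SD of 0.45. Of 437 genes with at least 5 measured probe sets, 31 (7.09%) had all of them lower in co-culture and 86 (19.7%) had all of them higher. The sixth Igfbp4 probe set, 1421991_a_at, was below the floor, with 38.5 in co-culture and 28.3 in serum.

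Igfbp5, a binding protein that adheres to extracellular matrix, gave opposite answers. By its brightest probe set, 1452114_s_at, it had 966 in co-culture and 3810 in serum, 3.94-fold lower (log2 difference -1.98), and 1.49% of all measured genes were as low or lower. By 1422313_a_at it had 213 in co-culture and 71.1 in serum, 2.99-fold higher (1.58). The 3.56 log2 units between both probe sets were reached or exceeded by 4 of 5480 genes with at least 2 measured probe sets, Igfbp5 among them. Opposite signs alone were common, in 46.4% of those genes. The direction of Igfbp5 is thus not settled by these arrays: it was lower by the brightest probe set, and higher (1.58) when _s_at and _x_at probe sets were left out and _a_at kept. The part of shared sequence, of transcript forms and of RNA length in this was not tested.

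Igfbp2, a binding protein of fetal tissue and many tumours, had 1045 in co-culture and 1953 in serum by its single probe set (1454159_a_at). It was 1.87-fold lower, with a log2 difference of -0.90, under the limit and over the pooled SD. Igfbp3, the main carrier of IGFs in blood, was below the floor on both arrays. Its probe sets had 12.2 and 24.8 in co-culture and 4.57 and 22.0 in serum. Igfbp7 was below the floor on both arrays by all 3 probe sets, which had 15.0, 5.16 and 3.27 in co-culture and 19.8, 16.6 and 6.06 in serum. No fold is given for either gene.

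Irs1, Igfbp4 and Igfbp5 had the lowest 3 differences of the measured genes, with Irs2 at its bound. With the floor at percentile 25, Irs2 was lower than each of them (-2.71). The sequences just upstream of Irs1, Igfbp4 and Igfbp5 are shown to compare what lies before genes that were lower together by their brightest probe sets. They are the 250 bases before the transcription start in RefSeq's annotation of GRCm38.p6, read 5′ to 3′ on the gene's strand; RefSeq sequences were matched for 9 of the 10 genes. Capitals mark matches, on either strand, to the TATA box (TATAAA), the GC box (GGGCGG), the E-box (CACGTG), a FOXO motif (GTAAACA) or the SMAD palindrome (GTCTAGAC). No match overlapped another.
Irs1 (chr1:82291440-82291689, minus strand): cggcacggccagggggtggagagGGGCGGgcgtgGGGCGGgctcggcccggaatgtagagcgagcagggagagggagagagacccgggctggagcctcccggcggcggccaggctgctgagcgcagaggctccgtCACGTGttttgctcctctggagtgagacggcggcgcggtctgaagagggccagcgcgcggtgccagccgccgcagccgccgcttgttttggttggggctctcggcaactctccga
Igfbp4 (chr11:99040994-99041243, plus strand): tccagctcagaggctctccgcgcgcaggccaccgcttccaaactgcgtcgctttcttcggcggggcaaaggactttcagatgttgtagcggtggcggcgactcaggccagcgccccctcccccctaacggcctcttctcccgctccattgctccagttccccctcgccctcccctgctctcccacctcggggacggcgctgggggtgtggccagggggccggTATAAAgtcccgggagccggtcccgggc
Igfbp5 (chr1:72874866-72875115, minus strand): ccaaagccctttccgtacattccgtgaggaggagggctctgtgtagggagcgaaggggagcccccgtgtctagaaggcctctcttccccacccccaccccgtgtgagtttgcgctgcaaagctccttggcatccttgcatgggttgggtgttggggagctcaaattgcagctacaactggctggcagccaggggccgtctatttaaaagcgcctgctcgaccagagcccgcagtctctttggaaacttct
Irs1 had GC boxes and an E-box, Igfbp4 had a TATA box, and Igfbp5 had none of these motifs. Motifs of Irs1 also lay before other members, both lower and not lower by their brightest probe set. Of the lower ones, Irs2 had 1 GC box and 1 E-box, and Igfbp2 had 3 GC boxes and 1 E-box. Of those not lower, Igf1r had 2 GC boxes and no E-box, and Igf2r had 3 GC boxes and 2 E-boxes. Igfbp7, which was not measured, had 4 GC boxes. Over 27025 genes' windows of the same length, 32.9% held the GC box, 13.0% the TATA box, 6.05% the E-box, 3.09% the FOXO motif and 0.174% the SMAD palindrome. Irs1 had 72.4% G and C, Igfbp4 69.2% and Igfbp5 58.8%. A match describes letters in this window and is not evidence of a bound factor.

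Around these genes, the ligands were not measured while most of the intracellular pathway was. Igf1 had 34.1 in co-culture and 27.1 in serum and Igf2 had 7.07 in co-culture and 2.32 in serum, both below the floor. Of the 10 ligand and further binding protein genes on the array, 3 lay above the floor, and 1 of them passed the limit: Insrr, the insulin receptor-related receptor, which had 96.3 in co-culture and 44.9 in serum (2.15-fold higher, and under 2-fold in 3 of the 9 alternative settings that gave it a value). Across the 7 pathway lists, 71 of the 89 genes on the array lay above the floor. Their median log2 difference was -0.16. Of these 71, 2 passed the limit as higher and 12 as lower, 8 of the 12 in the FOXO list described below. Of all measured genes, 4.52% were higher and 9.97% lower past the limit.

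Proteases that cut binding proteins, and their inhibitors, held the extremes in both directions, with 1 of 6 measured genes higher and 1 lower. The shares over all measured genes were 4.52% higher and 9.97% lower. Htra1, a secreted serine protease that cleaves IGF-binding proteins among other substrates, had 6377 in co-culture and 361 in serum, 17.7-fold higher, and its other measured probe set gave a log2 difference of 3.92. Stc1, a stanniocalcin that inhibits the pappalysin proteases, had 15.3 in co-culture and 376 in serum, at least 8.49-fold lower by its only measured probe set. The pappalysins Pappa and Pappa2, which cut IGF-binding proteins, were below the floor on both arrays.

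Of the adaptors and inhibitors at the receptor, 1 of 14 measured genes passed the limit, and the median was 0.13. That gene was Sh2b1, an adaptor that enhances insulin receptor signalling, with 280 in co-culture and 882 in serum (3.15-fold lower). Of all measured genes, 9.97% were lower past the limit, and 1 of 14 is near that share. Other measured probe sets went against the brightest for the phosphatase Ptpn11 (-0.01, but 1.48 and 2.57 by the others) and for Grb10, an inhibitory adaptor (0.24, with the others at -0.88 and 1.81). In the branch of phosphoinositide 3-kinase, AKT and TOR, 2 of 19 passed the limit, both as lower and again near that share. The median of the branch of this kinase was -0.07. Pik3r2, a regulatory subunit of the kinase, had 152 in co-culture and 492 in serum (3.23-fold lower). Tsc1, which restrains TOR, had 783 in co-culture and 1980 in serum (2.53-fold lower), while its other probe sets gave -0.59 and -0.56. A further 4 genes of that branch, Pik3r1, Akt1, Rictor and Gsk3b, lay within 2-fold by the brightest probe set and past it by another. Of the 10 listed genes of the RAS and MAP kinase branch 5 were analysed here. By the brightest probe set all 5 lay within 2-fold (median 0.15), and the largest difference was that of the kinase Braf, 836 in co-culture and 562 in serum (0.57), followed by the small GTPase Nras (0.43). Other measured probe sets reached 1.28 for Braf and ranged from -0.75 to 1.28 for the kinase Araf. All 10 trafficking partners of Igf2r lay within 2-fold by the brightest probe set as well (median 0.05). Among them Plaur, the urokinase receptor, which can bind IGF2R, had 232 in co-culture and 134 in serum (0.79), and the sorting nexin Snx1 had a difference of -0.61. Most genes of the array also lay within 2-fold: of all measured genes, 4.52% were higher and 9.97% lower past the limit.

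FOXO factors and genes that FOXO activates in other tissues were the list with the most lower members. Of 14 measured genes 8 passed the limit, each as lower, and all 14 had a difference below 0 by the brightest probe set, with a median of -1.07. Over all measured genes, 9.97% were lower past the limit and 54.1% had a difference below 0. The list was chosen with earlier results of these data known, so its counts are a description and no test. Foxo1 itself, a factor that insulin signalling keeps inactive, had 213 in co-culture and 743 in serum (3.49-fold lower, and between -1.72 and -0.28 on the log2 scale by its other probe sets). Its brightest probe set is marked as shared sequence, and Foxo1 stayed below 0 in all 11 alternative settings, past 2-fold in 8. Gadd45a, a DNA damage gene, had 592 in co-culture and 1533 in serum (2.59-fold lower). Klf15, a metabolic transcription factor, had 45.8 in co-culture and 109 in serum (2.37-fold lower), and Trib1, a pseudokinase, had 88.7 in co-culture and 202 in serum (2.28-fold lower). The rest of the 8, named after their values were seen, were Pink1, Sesn3, Ccng2 and Bcl6, between 2.07-fold and 2.22-fold lower. Other probe sets were above 0 for Sesn3 (0.03), Cdkn1b (0.03) and Txnip (0.87), and after subtraction of the median difference 13 of the 14 genes were below 0. Foxo3 and Foxo4, the other FOXO factors of the list, had differences of -0.28 and -0.48. Several of these genes answer to p53 or other factors too, so the list is not specific to FOXO. The count of lower genes stayed 8 with the mean over measured probe sets, where 7.95% of all measured genes were lower. It was 5 of 14 when probe sets below the floor entered the mean as 0 (5.65% of all genes) and 3 of 11 with the floor at percentile 75 (5.50% of all genes).

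**Figure D3:**
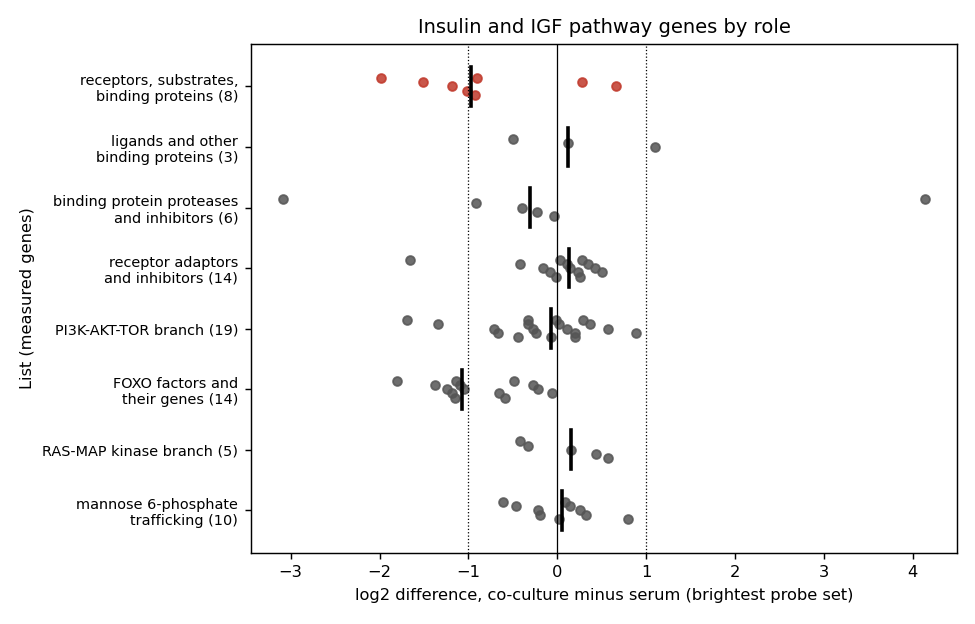
Log2 difference, co-culture minus serum, of each measured gene by its brightest probe set, for the receptors, substrates and binding proteins (top) and the 7 pathway lists, with the number of measured genes in brackets; thick bars are medians, dotted lines mark 2-fold, and genes below the floor on 1 array (Irs2 and Stc1 among them) stand at their bound. The medians of the top list and of the FOXO list are -0.97 and -1.07, while those of the other lists lie between -0.31 and 0.15.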

How the data were processed

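Column-purified total RNA was reverse transcribed with an oligo(dT) primer and amplified as biotin-labelled cRNA, per the labels' protocols, and read in a single colour. The authors' deposited values are an intensity on a linear scale, 1 per array for each of 45101 probe sets. Software, background correction and scaling are not given in those labels. Both arrays shared the mean after trimming 2% at each end (500.003), with medians of 50.7 in co-culture and 36.9 in serum, and that the authors scaled the arrays to a common trimmed mean is an inference from the values.

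Genes were assigned from the array's platform annotation, with symbols updated by gene number to RefSeq's GRCm38.p6; 34958 probe sets had 1 symbol and those with several named no gene. The floor, log2 differences and counts were computed with Python 3.11.15 (pandas 2.3.3, numpy 2.4.6), and the steps were tested on simulated data. The number of arrays limits the precision. Each group was 1 array, as its label gives it. All probe sets of the members are given; from each of the 7 pathway lists the text names up to 4 genes past 2-fold with the largest difference, or 2 where none was, while other genes outside the members were picked with their values known. The members and lists were chosen with earlier results of these data known. Of the 11 alternative settings 2, and the use of all of them for the FOXO list, were chosen after seeing the data.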

Additional observations from a re-analysis of the deposited data

How the results depend on the processing

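No paired analysis was possible because each group is 1 array, and no array could be left out. Alternatives were floors at percentiles 25 and 75 and at 200, a pseudocount of 16, subtraction of the median difference, quantile normalization, scaling to the hybridisation spikes, the mean over all probe sets of a gene (those below the floor on both arrays entering as 0) or, chosen after seeing the data, over the measured ones, and leaving out probe sets marked as shared, with _a_at left out or, chosen after seeing the data, kept. With the floor at percentile 75, 1 of the 10 genes was at least 2-fold lower, the median over the measured ones was -0.22, 6 pathway genes (against 14) passed 2-fold and 3 FOXO list genes (against 8) were lower. At the floor of 200 the pathway count was 9 and the FOXO count 5. Of all measured genes, 5.50% were lower and 1.98% higher past 2-fold with the floor at percentile 75. At the floor of 200 these shares were 7.75% and 2.58%. With the mean over all probe sets 1 of the 10 genes was lower, the median was -0.63 and the FOXO count was 5; over measured probe sets 2 were lower and the median was -0.73. Without shared probe sets 2 of the 5 genes still measured were lower, since Igfbp2, Igfbp4 and Igfbp5 then had no value. Of all measured genes, 9.79% were lower past 2-fold in that setting. With _a_at kept, Igfbp5 reversed to 1.58 and 1 of 8 measured genes was higher in place of 0, against 4.88% of all measured genes. A higher floor shrinks differences that cross it, by construction, and probe sets entered as 0 pull a mean toward 0; for Igfbp5 the cause was not tested. Of 83 single-gene values, 75 moved by less than the pooled SD and 7 by more without reversing. Igf1r and Igf2r stayed above 0 (0.22 to 0.73 and 0.09 to 0.42) and Irs1 below it (-1.70 to -0.93) in all 11 settings. A floor or a pseudocount cannot reverse the sign of a probe set, and Irs1 has only 1 probe set. Keeping a sign was thus partly fixed in advance. Insr passed 2-fold in 5 of 11 (-1.21 to -0.09), Igfbp4 in 8 of 10 (-1.37 to -0.22) and Igfbp2 in 1 of 10. Irs2 had a value in 9 and passed in 4 (-2.71 to -0.86). Of the pathway genes named past 2-fold, Htra1 (3.92 to 4.20) and Gadd45a passed it in all 11 settings, and each of the 10 such genes kept its sign wherever it had a value. Over all measured genes, the share of higher among higher and lower ones was 31.2%, 55.9% with the floor at percentile 25, 41.5% with the pseudocount and 18.0% with spike scaling, which moved their median difference from -0.06 to -0.25. Signal near background limits Irs2, Igfbp3 and Igfbp7.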
